A study of Mus musculus with 6 samples.

Results

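Imprinted genes, which are transcribed mainly from the copy inherited from one parent, were examined in the PFC of WT mice and P301S Tau mice. A set of 40 mouse imprinted genes was taken by symbol from the 54429 genes of the count tables, and 35 of them were among the 20409 genes with enough reads to be tested. RNA sequencing covered 6 libraries, 2 from each of 3 groups of 6 month old mice. WT mice (C57BL/6 x C3H) and P301S Tau mice received vehicle, and a further group of P301S Tau mice received UNC0642, an inhibitor of the histone methyltransferases EHMT1 and EHMT2. P301S Tau mice (the PS19 line) carry a human tau transgene with the P301S mutation under the mouse Prnp promoter, and UNC0642 or vehicle was given by intraperitoneal injection, so all 3 groups were injected animals.

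Imprinted genes lie in clusters, each governed by a control region that is DNA-methylated on the maternal or the paternal copy from the germ line onwards. In a cluster, genes read from the paternal copy often neighbour genes read from the maternal copy, and a long noncoding RNA is often among them. EHMT2 (also called G9a) places dimethylation on lysine 9 of histone H3, takes part in keeping the silent copy of some imprinted genes inactive, and its inhibition has been used to reactivate the silent maternal genes of the Snrpn domain. Many imprinted genes are active in the brain, where several act in growth, feeding and neuronal development. The libraries report the sum of both parental copies, so which copy was transcribed was not measured.

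Total counts ran from 17005664 to 28972176 per library, and 3 counts corresponded to 0.1035 to 0.1764 CPM (counts relative to the scaled size of the library). Several features of the libraries did not follow the group labels. Prnp, whose promoter drives the transgene, stood at 1652 CPM in the library labelled WT replicate 1, within the range of 1470 to 1694 CPM of the 4 transgenic libraries, against 873 CPM in WT replicate 2. Mapt showed the same order, at 576 and 449 CPM in the WT libraries and 571 to 614 CPM in the transgenic ones. Xist, the RNA of the inactive X chromosome in females, had 4104 to 8107 counts in WT replicate 2 and both Tau libraries and 2 to 5 counts in the other three, so sex and UNC0642 treatment cannot be told apart in the comparison of UNC0642-treated with untreated P301S Tau mice. Cortical neuron markers were high in every library, with a summed level of 1502 to 1749 CPM. Summed striatal markers were at 253 CPM and oligodendrocyte markers at 5278 CPM in Tau replicate 2, against 97.7 to 123 CPM and 1386 to 2841 CPM in the other 5 libraries. All 8 striatal markers were called higher in Tau than in WT, and 7 of 8 were called lower after UNC0642. Between Tau and WT, 5 of 10 endothelial and mural markers and 5 of 13 meningeal markers were called lower and 1 endothelial or mural marker higher. The part of cell composition and of sex in the results below was not tested, and each member call that was lost without 1 library is given with its value without it. Ehmt1 and Ehmt2, the targets of UNC0642, stood at 43.6 to 49 CPM and 131 to 161 CPM and were called in none of the 3 comparisons.

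The imprinted genes covered a very wide range of levels. Of the 40 genes, 5 were not tested. Snurf and Calcr had 0 counts in every library, and for Snurf all annotated exon bases (100%) lie inside the exons of Snrpn, so reads of one cannot be told from reads of the other. Peg12 had 4 counts in the library labelled WT replicate 1, 2 in Tau replicate 1 and 0 in the other 4 libraries. Igf2, a fetal growth factor made in the adult brain mainly by the meninges and choroid plexus, had 1 and 13 counts in the WT libraries, 6 and 2 in the Tau libraries and 7 and 3 in the UNC0642-treated libraries, and 64.5% of its exon bases overlap another annotated gene. H19, the maternally expressed noncoding RNA beside it, had 1 and 8, 6 and 2, and 7 and 0 counts in the same order. Meningeal fibroblast markers summed to 130 CPM in WT replicate 2 and to 65.7 to 91.2 CPM in the other libraries. WT replicate 2 had the most counts of Igf2 and H19, and the highest CPM of Igf2 (0.508). The CPM of H19 was higher in UNC0642 replicate 1 (0.414) than in WT replicate 2 (0.312). Choroid plexus markers summed to 4.22 CPM in WT replicate 2, their lowest value, and 13.8 CPM in the library labelled WT replicate 1, their highest. Aqp1 alone gave 9.93 CPM of the latter, against 0.265 to 0.71 CPM in the other libraries. Prlr was lowest in the WT libraries (0.315 and 0.156 CPM). The part of meninges or choroid plexus in the counts of Igf2 and H19 was not tested.

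By mean level over the 6 libraries the leading members were Meg3 at 950 CPM, Rian at 560 CPM, Peg3 at 551 CPM, Impact at 490 CPM, Rasgrf1 at 381 CPM, Snrpn at 380 CPM, Ube3a at 307 CPM and Peg13 at 279 CPM. Per kilobase of annotated exon the order changed, with Snrpn first at 176 CPM per kilobase, followed by Impact at 95.5, Peg13 at 59.1, Meg3 at 52.5, Ndn at 50.5, Peg3 at 41.4, Rasgrf1 at 34.4 and Rian at 30.7 CPM per kilobase. Snrpn, which encodes a splicing factor of neurons, shares 34.1% of its exon bases with other annotated genes, and reads of those bases cannot be assigned to one gene.

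**Figure D1:**
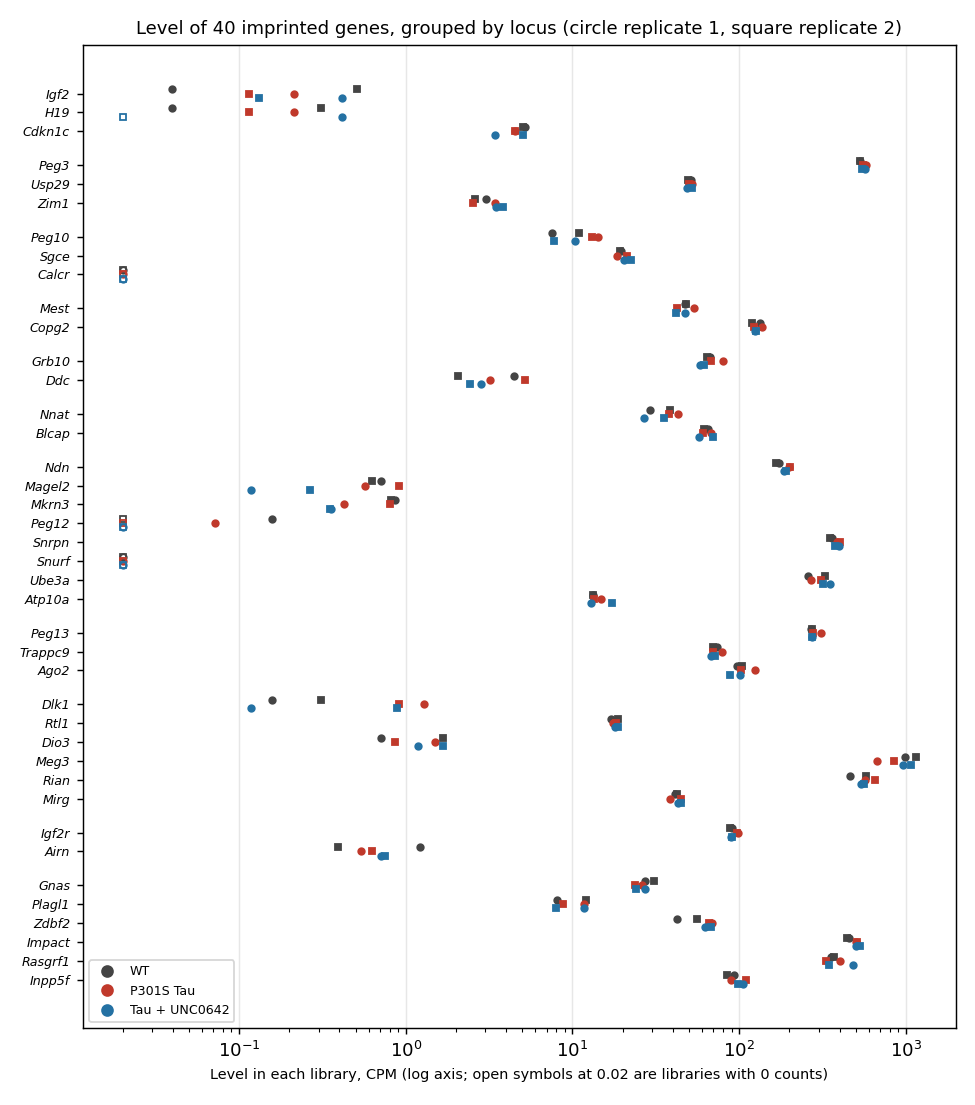
Level of each of the 40 imprinted genes in each library, in CPM on a log axis, with genes grouped by locus, colours for the 3 groups, and circles and squares for replicates 1 and 2. Levels run from 0 counts (Snurf, Calcr) to 1148 CPM (Meg3 in WT replicate 2), and the 6 libraries lie close together for most genes above 10 CPM.

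A gene was called when its unadjusted p was under 0.05 and its fold change at least 1.2, the threshold of the study. By this rule 4 of 35 tested members (11.4%) were called between Tau and WT, against 9.81% of all genes, with Peg10, Zdbf2 and Dlk1 higher and Meg3 lower in P301S Tau mice. After UNC0642, relative to untreated P301S Tau mice, 6 of 35 (17.1%) were called, against 7.69% of all genes, with Meg3 higher and Peg10, Grb10, Nnat, Magel2 and Ago2 lower. Between UNC0642-treated P301S Tau mice and WT mice 2 of 35 (5.71%) were called, against 9.47% of all genes, with Zdbf2 higher and Magel2 lower. The first share was near that of all genes, the last below it and the one after UNC0642 above it. With edgeR on the tested genes, 0 members passed an adjusted p of 0.05 in any comparison, where 0.157%, 0.0196% and 0.216% of all genes did. Without the fold limit, 7, 6 and 3 members had an unadjusted p under 0.05 in the 3 comparisons, against 12.4%, 8.86% and 12.1% of all genes. With DESeq2 those counts were 7, 5 and 2, against 8.11%, 5.86% and 8.6% of all genes. By DESeq2's adjusted p 1 member, Meg3, passed between Tau and WT and 0 passed in the other comparisons, against 0.977%, 0.403% and 1.92% of the genes with an adjusted p. The first 2 comparisons share the Tau libraries, so a high or low value there enters both with opposite signs. Because these are bulk samples, fewer cells of a type and less RNA per cell cannot be told apart.

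The median log2 fold change of the 35 tested members was 0.09 between Tau and WT, -0.04 after UNC0642 and 0.00 between UNC0642-treated and WT mice, where the medians of all tested genes were -0.0001, -0.0023 and -0.0123. The libraries of the 2 groups did not overlap for 15 members (42.9%) between Tau and WT, 16 (45.7%) between treated and untreated P301S Tau mice and 12 (34.3%) between treated and WT mice, and for 43.2%, 41.3% and 44.4% of all genes. Members were grouped by parental copy from general knowledge of the mouse, which need not hold for each gene in this tissue. Of 20 tested paternally expressed genes, 3 were called higher and 0 lower in Tau than in WT (15%, against 9.81% of all genes). After UNC0642, 0 of them were higher and 3 lower (15%, against 7.69%). Between treated and WT mice 1 was higher and 1 lower (10%, against 9.47%). Of 10 tested genes read from the maternal copy, 0 were called higher and 1 lower in Tau than in WT (10%). After UNC0642, 1 of them was higher and 1 lower (20%), and between treated and WT mice 0 were called. Of the 5 whose imprinting depends on isoform or tissue, none were called in Tau and 1, Grb10, was called after UNC0642 (20%). The remaining 27 tested members were called in no comparison.

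**Figure D2:**
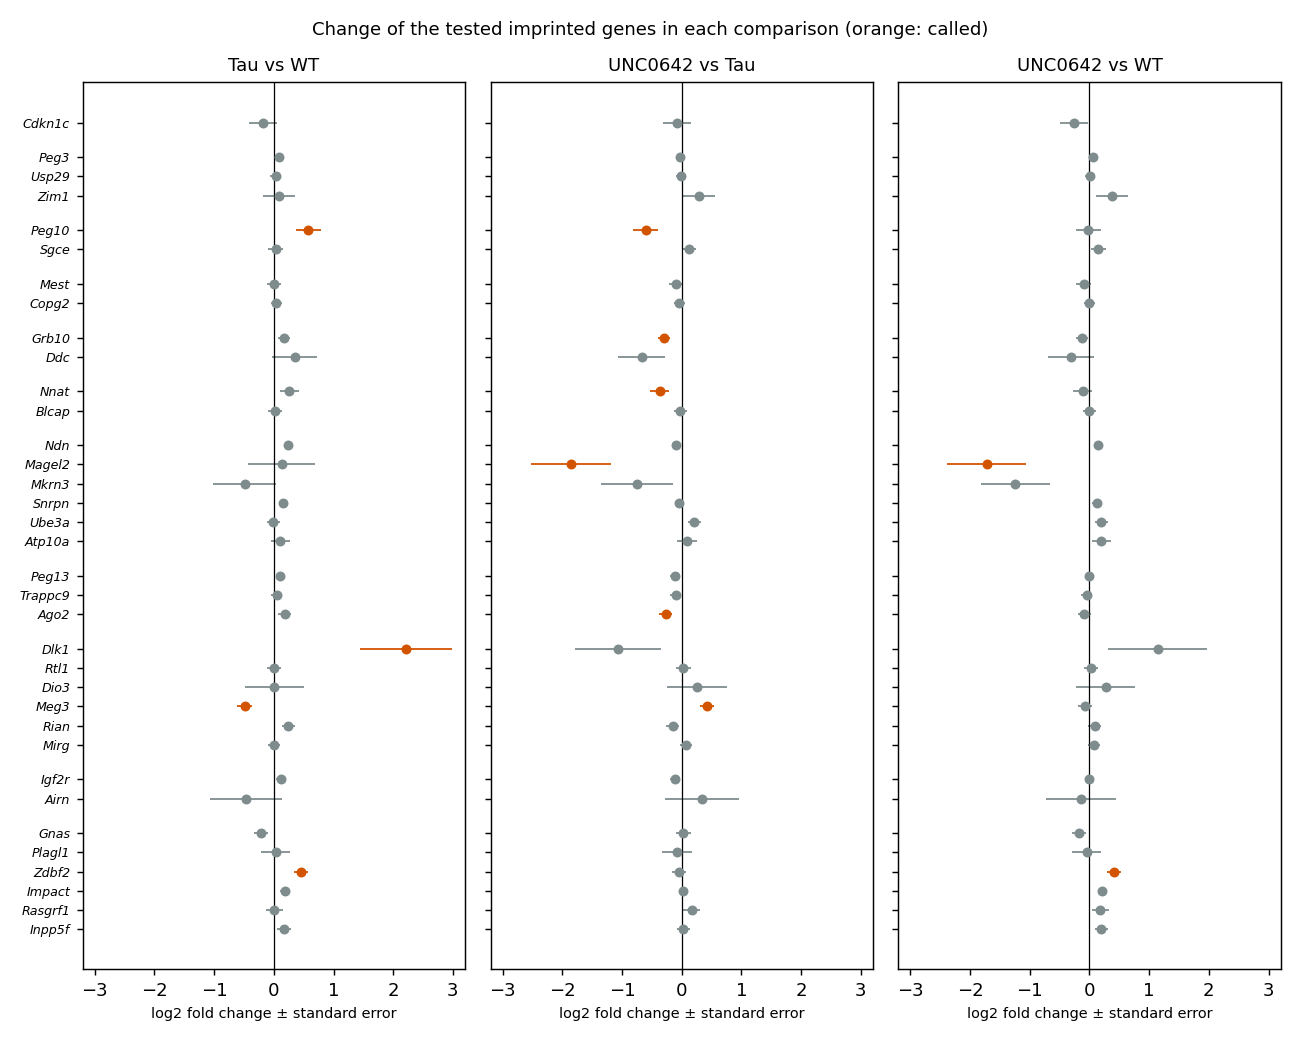
Log2 fold change with its standard error for the 35 tested imprinted genes, grouped by locus, in Tau against WT, UNC0642-treated against untreated Tau, and UNC0642-treated Tau against WT (positive values are higher in the first group). The called genes, in orange, number 4, 6 and 2, and the widest error bars belong to the lowest genes, such as Dlk1 and Magel2.

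At least 1 promoter window of each of 4 called members holds the hexamer TGCCGC (or GCGGCA, its other strand). The zinc finger protein ZFP57 recognises this hexamer when its CpG is methylated, as at imprinting control regions. They are shown because 6 of the 8 called members had a window and these 4 hold the hexamer. Windows of 300 bases, most of them upstream of the annotated start, were read from RefSeq sequence (GRCm38.p6), and 31 of the 40 members had at least 1 window. The hexamer was in 13 of 47 member windows (27.7%) and in 11.6% of 32851 windows of all genes. Some windows overlap or are shared, as those of Snrpn and Snurf, and with overlapping windows counted as 1 the hexamer was in 11 of 44 (25%) and in 11.7% of 30704. Member windows held a median of 15 CpG sites against 7. The YY1 core GCCATNTT was searched on both strands as well and was in 4.26% of member windows and 6.05% of all windows. Each sequence runs 5′ to 3′ on the gene's own strand, in lower case with the hexamers in capitals.
Meg3, chr12:109540746-109541045, plus strand: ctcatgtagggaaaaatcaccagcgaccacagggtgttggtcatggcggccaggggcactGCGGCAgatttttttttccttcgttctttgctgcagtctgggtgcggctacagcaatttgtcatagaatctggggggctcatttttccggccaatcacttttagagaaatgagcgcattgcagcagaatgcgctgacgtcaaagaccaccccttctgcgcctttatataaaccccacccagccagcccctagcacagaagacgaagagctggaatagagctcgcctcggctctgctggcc
Zdbf2, chr1:63200108-63200407, plus strand: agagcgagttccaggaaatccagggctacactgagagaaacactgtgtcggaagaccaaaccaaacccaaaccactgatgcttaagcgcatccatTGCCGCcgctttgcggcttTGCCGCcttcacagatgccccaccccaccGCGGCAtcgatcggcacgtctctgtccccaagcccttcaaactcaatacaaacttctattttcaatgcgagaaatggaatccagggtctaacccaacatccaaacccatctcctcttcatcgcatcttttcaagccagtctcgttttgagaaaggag
Grb10, chr11:12037371-12037670, minus strand: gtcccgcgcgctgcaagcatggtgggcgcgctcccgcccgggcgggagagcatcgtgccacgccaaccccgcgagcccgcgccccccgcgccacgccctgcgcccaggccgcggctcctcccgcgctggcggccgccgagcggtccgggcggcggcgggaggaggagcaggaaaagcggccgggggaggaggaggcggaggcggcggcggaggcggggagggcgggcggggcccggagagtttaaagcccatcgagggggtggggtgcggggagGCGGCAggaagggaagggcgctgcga
Nnat, chr2:157559828-157560127, plus strand: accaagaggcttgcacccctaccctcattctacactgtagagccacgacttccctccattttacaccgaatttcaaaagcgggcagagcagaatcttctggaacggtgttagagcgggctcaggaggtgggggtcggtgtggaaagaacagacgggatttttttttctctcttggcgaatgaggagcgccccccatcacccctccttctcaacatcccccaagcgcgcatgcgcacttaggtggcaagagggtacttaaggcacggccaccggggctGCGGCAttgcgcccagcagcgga
The Zdbf2 window belongs to an upstream start and holds 3 hexamers, and the other windows shown hold 1 each. Meg3, Zdbf2 and Grb10 each had a second window, not shown, without the hexamer. For Zdbf2 that window spans the annotated start of the gene. The windows of Dlk1 and Magel2 held none, and Peg10 and Ago2 had no window. The methylation of these sites was not measured.

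The Dlk1-Dio3 locus on chromosome 12 gave the called member with the smallest p. Meg3, a maternally expressed long noncoding RNA (chromosome 12, 109541001 to 109571726, plus strand, GRCm38) whose promoter is the first sequence above, was lower in P301S Tau mice, and higher again after UNC0642. It stood at 994 and 1148 CPM in the WT libraries, 671 and 852 CPM in the Tau libraries and 959 and 1075 CPM in the UNC0642-treated libraries. Both Tau libraries were below all 4 others. The difference was 1.41-fold between Tau and WT (log2 -0.49 ± 0.12 SE, unadjusted p = 0.00183, adjusted p = 0.198) and 1.34-fold between treated and untreated P301S Tau mice (log2 0.42 ± 0.12 SE, unadjusted p = 0.00522, adjusted p = 0.401). Treated and WT mice differed by -0.08 ± 0.12 on the log2 scale. With edgeR on the tested genes, the adjusted p of the fall in Tau was above 0.05. The fall met the call rule in every refit, with log2 values of -0.67 to -0.33 when 1 library was left out. It was -0.60 without the library labelled WT replicate 1, among Xist-positive libraries alone, and -0.67 without Tau replicate 2, the library with the high striatal and oligodendrocyte markers. The rise after UNC0642 missed the call without Tau replicate 1 (log2 0.26, unadjusted p = 0.0392, under the fold limit) and without UNC0642 replicate 2 (log2 0.33, unadjusted p = 0.0595).

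The other noncoding RNAs of the same maternal cluster were not called with all 6 libraries. Rian, a host of small nucleolar RNAs downstream of Meg3, stood at 464 and 573 CPM in WT, 572 and 651 CPM in Tau and 536 and 564 CPM after UNC0642. Its log2 fold change was 0.24 ± 0.11 (SE) between Tau and WT, with an unadjusted p of 0.0457 but a fold change of 1.18, under the limit. It was called without WT replicate 2 (0.40, unadjusted p = 0.00194) and without Tau replicate 1 (0.33, unadjusted p = 0.0175). Mirg, a microRNA host, stayed between 38.5 and 45.1 CPM in all 6 libraries. The ratio of Meg3 to Rian counts, which does not depend on how libraries are scaled, was 2.14 and 2.01 in WT, 1.17 and 1.31 in Tau and 1.79 and 1.91 after UNC0642. Its group means were 2.07 ± 0.098, 1.24 ± 0.097 and 1.85 ± 0.083 (SD of 2 libraries), and the Tau libraries overlapped with neither other group. Meg3 to Mirg gave 24.2 and 27.2, 17.4 and 18.9, and 22.3 and 24.2 in the same order, again lowest in both Tau libraries. Rian to Mirg was 11.3 and 13.6 in WT, 14.9 and 14.4 in Tau and 12.5 and 12.7 after UNC0642. These ratios were chosen after the values of Meg3 had been seen and were not tested.

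**Figure D3:**
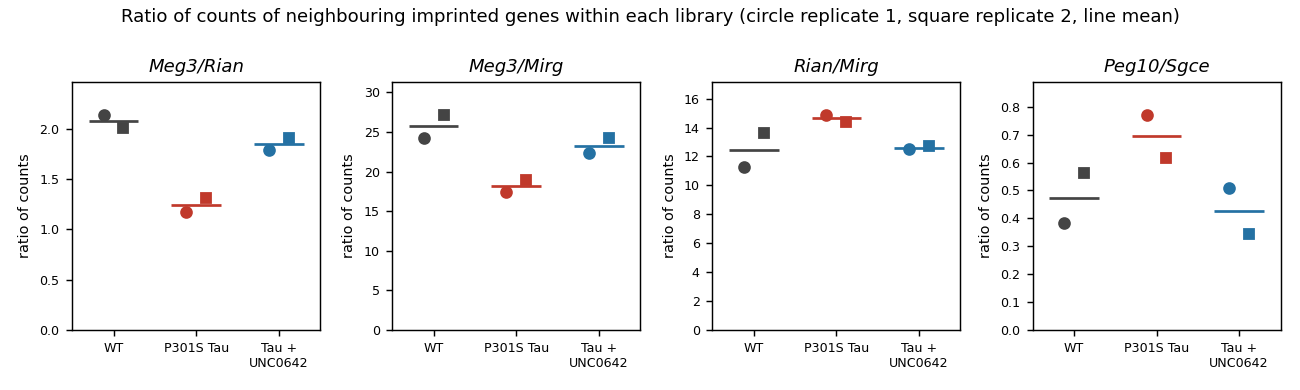
Ratio of counts of neighbouring imprinted genes within each library, with 1 point per library (circle replicate 1, square replicate 2), a line at the group mean and axes from 0. Meg3/Rian is 1.17 and 1.31 in the Tau libraries and 1.79 to 2.14 in the other 4, and Peg10/Sgce is 0.615 and 0.772 in the Tau libraries and 0.344 to 0.564 in the others.

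The paternally expressed coding genes of the locus were low, and Dlk1 alone among them was called. Dlk1, a transmembrane ligand-like protein related to the Notch ligands (chromosome 12, 109452823 to 109463336), had 4 and 8 counts in WT, 36 and 16 in Tau and 2 and 20 after UNC0642, or 0.158 and 0.312, 1.29 and 0.916, and 0.118 and 0.882 CPM. The Tau libraries were above the other 4, though UNC0642 replicate 2 was close to Tau replicate 2. The log2 fold change between Tau and WT was 2.22 ± 0.77 (SE), with an unadjusted p of 0.0164 and an adjusted p of 0.318. With a term for Xist in the fit it was 1.82 and not called. It missed the threshold without the library labelled WT replicate 1 (1.81, unadjusted p = 0.0902) and without Tau replicate 1 (1.93, unadjusted p = 0.0933). After UNC0642 the change was -1.07 ± 0.72 and was not called, but without UNC0642 replicate 2 it was -3.17 and called (unadjusted p = 0.0112). The change against WT, 1.14 ± 0.83, was called without UNC0642 replicate 1 (1.88, unadjusted p = 0.0246). Dlk1 and Peg10 were also among the genes that the study listed as reversed by UNC0642 on these libraries, so that choice is not independent evidence. Rtl1, a retrotransposon-derived gene, stood at 17.1 to 18.7 CPM in the 6 libraries with log2 fold changes between -0.00 and 0.03. Dio3, which inactivates thyroid hormone, had 15 to 43 counts per library and was not called.

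**Figure D4:**
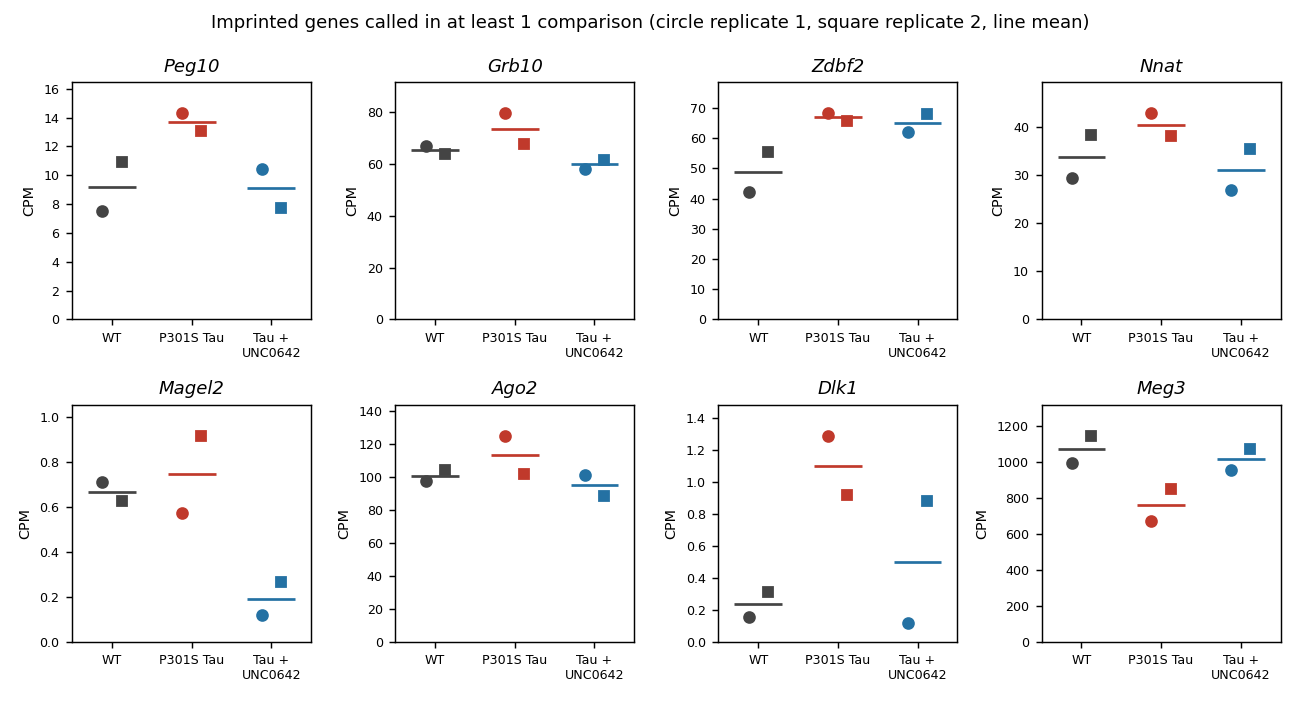
CPM of the 8 imprinted genes called in at least 1 comparison, with 1 point per library (circle replicate 1, square replicate 2), a line at the group mean and axes from 0. Both Tau points lie above both WT points for Peg10, Zdbf2 and Dlk1 and below them for Meg3, and the 2 treated points lie below both Tau points for Peg10, Grb10, Nnat, Magel2, Ago2 and Dlk1.

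Peg10 was higher in P301S Tau mice and lower again after UNC0642. This paternally expressed, retrotransposon-derived gene (chromosome 6, 4747306 to 4760517) stood at 7.49 and 10.9 CPM in WT, 14.3 and 13.1 CPM in Tau and 10.4 and 7.76 CPM in UNC0642-treated mice. Both Tau libraries were above all 4 others. The difference was 1.49-fold between Tau and WT (log2 0.58 ± 0.21 SE, unadjusted p = 0.0181, adjusted p = 0.324) and 1.51-fold lower after UNC0642 (log2 -0.60 ± 0.21 SE, unadjusted p = 0.0165, adjusted p = 0.469). Between Tau and WT the call was lost without the library labelled WT replicate 1 (0.33, unadjusted p = 0.138) and without Tau replicate 1 (0.51, unadjusted p = 0.0819), and after UNC0642 it was lost without Tau replicate 1 (-0.53, unadjusted p = 0.0744) and without UNC0642 replicate 2 (-0.39, unadjusted p = 0.142). With a term for Xist in the fit the first difference was 0.34 and not called, and the second was -0.07 (unadjusted p = 0.834). Sgce, the sarcoglycan gene beside it that is also paternally expressed, stood at 18.5 to 22.5 CPM in all 6 libraries. The ratio of Peg10 to Sgce counts was 0.382 and 0.564 in WT, 0.772 and 0.615 in Tau and 0.507 and 0.344 after UNC0642.

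Zdbf2 was higher in both groups of P301S Tau mice than in WT mice. This paternally expressed zinc finger gene (chromosome 1, 63273265 to 63314576), which is active in the hypothalamus and known for its effect on feeding and growth, stood at 42.2 and 55.6 CPM in WT, 68.3 and 65.6 CPM in Tau and 62.1 and 67.9 CPM in UNC0642-treated mice. Every transgenic library was above both WT libraries. The log2 fold change was 0.45 ± 0.12 (SE) between Tau and WT, a 1.37-fold difference with an unadjusted p of 0.00417 and an adjusted p of 0.247. It was 0.41 ± 0.12 between UNC0642-treated and WT mice (unadjusted p = 0.00754, adjusted p = 0.243) and -0.04 ± 0.12 between treated and untreated P301S Tau mice. With a term for Xist in the fit, the last of these was 0.36 and was called (unadjusted p = 0.0391). With edgeR on the tested genes, the adjusted p of the difference between Tau and WT was above 0.05. That difference met the call rule in every refit. Its log2 values were 0.27 to 0.67 when 1 library was left out, the lowest being without the library labelled WT replicate 1. The call between treated and WT mice was lost without that library (0.23, unadjusted p = 0.0595) and without UNC0642 replicate 2 (0.34, unadjusted p = 0.0603). Hypothalamic and subcortical markers summed to 148 and 113 CPM in WT, 119 and 82.6 CPM in Tau and 88.5 and 100 CPM after UNC0642. Hap1 made up most of each sum, at 123 and 105, 112 and 75.9, and 83.3 and 92.5 CPM in the same order. Trh stood at 16.8 CPM in the library labelled WT replicate 1 and at 0.586 to 1.32 CPM in the others. Oxt, Sim1 and Nkx2-1 had 3 counts or fewer in every library. The part of these markers in the difference of Zdbf2 was not tested.

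Grb10, Nnat and Ago2 were called lower after UNC0642 at fold changes of 1.21 to 1.3. Grb10, an adaptor protein that damps insulin receptor signalling and is read from the paternal copy in neurons, stood at 67.1 and 63.8 CPM in WT, 79.7 and 67.7 CPM in Tau and 58 and 61.8 CPM after UNC0642. The change after UNC0642 was -0.30 ± 0.10 (SE, log2), with an unadjusted p of 0.0125 and an adjusted p of 0.454. Tau replicate 1 was the highest library, and without it the change was -0.18 (unadjusted p = 0.143). It was -0.26 without UNC0642 replicate 1 (unadjusted p = 0.0903), and -0.37 with a term for Xist (unadjusted p = 0.0516). The difference between Tau and WT was called without Tau replicate 2 (0.29, unadjusted p = 0.0244). Ddc, the neighbouring gene of dopamine and serotonin synthesis, stood at 2.07 to 5.21 CPM, with its highest value in Tau replicate 2, and was not called with all 6 libraries. Its difference between Tau and WT, 0.35, was called without the library labelled WT replicate 1 (1.00, unadjusted p = 0.0287). Its change after UNC0642, -0.67, was called without Tau replicate 1 (-0.99, unadjusted p = 0.0474), without the filter (-0.66, unadjusted p = 0.0279) and with a term for Xist (-1.77, unadjusted p = 0.00898).

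Nnat, a small membrane proteolipid of developing neurons, stood at 29.3 and 38.3 CPM in WT, 42.8 and 38 CPM in Tau and 26.8 and 35.4 CPM after UNC0642. The change after UNC0642 was -0.37 ± 0.16 (SE, log2; unadjusted p = 0.0411, adjusted p = 0.548). It was -0.28 without Tau replicate 1 (unadjusted p = 0.186) and -0.19 without UNC0642 replicate 1 (unadjusted p = 0.303). It was -0.34 with library size only (unadjusted p = 0.0522) and 0.01 with a term for Xist (unadjusted p = 0.956). Between Tau and WT Nnat was called without WT replicate 2 (0.47, unadjusted p = 0.0191). Nnat lies in an intron of Blcap, which stood at 57.3 to 69.6 CPM and had a log2 change of -0.02 ± 0.11 after UNC0642. Ago2, the Argonaute protein that carries microRNAs, stood at 97.3 and 104 CPM in WT, 125 and 102 CPM in Tau and 101 and 88.6 CPM after UNC0642. Its change after UNC0642 was -0.27 ± 0.11 (unadjusted p = 0.0321, adjusted p = 0.521), and its treated libraries lay 1 just below and 1 well below Tau replicate 2. Without Tau replicate 1 it was -0.11 (unadjusted p = 0.328), and without UNC0642 replicate 2 it was -0.18 (unadjusted p = 0.232). It was -0.24 with library size only, under the fold limit, and -0.17 with a term for Xist (unadjusted p = 0.374). Between Tau and WT Ago2 was called without Tau replicate 2 (0.32, unadjusted p = 0.014). The other genes of its locus were not called, with Trappc9 at 67.4 to 78.8 CPM and the noncoding Peg13, which is read from within Trappc9, at 269 and 274 CPM in WT, 310 and 277 CPM in Tau and 273 and 272 CPM after UNC0642.

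In the Snrpn-Ube3a domain on chromosome 7, which is lost or mutated in Prader-Willi and Angelman syndromes, 1 of 6 tested members was called, the sparsely expressed Magel2. This was 16.7% in each comparison with UNC0642-treated mice, against 7.69% (relative to Tau) and 9.47% (relative to WT) of all genes. Between Tau and WT 0 were called. Magel2, an intronless gene for a protein of ubiquitin ligase complexes (62377010 to 62381640), had 18 and 16 counts in WT, 16 and 16 in Tau and 2 and 6 after UNC0642. These counts correspond to 0.71 and 0.625, 0.572 and 0.916, and 0.118 and 0.265 CPM, and both treated libraries were below the other 4. The log2 fold change was -1.85 ± 0.67 (SE) against untreated P301S Tau mice, with an unadjusted p of 0.0193 and an adjusted p of 0.48. Against WT mice it was -1.72 ± 0.66 (unadjusted p = 0.0263, adjusted p = 0.342). The first call was lost without Tau replicate 2 (-1.51, unadjusted p = 0.107) and without UNC0642 replicate 1 (-1.45, unadjusted p = 0.104), and the second without the library labelled WT replicate 1 (-1.63, unadjusted p = 0.0939), WT replicate 2 (-1.81, unadjusted p = 0.0618) or UNC0642 replicate 1 (-1.32, unadjusted p = 0.133). Against Tau it was -1.90 by DESeq2 (unadjusted p = 0.0507) and -2.03 with a term for Xist (unadjusted p = 0.099), and neither was called. Against WT it was -1.76 by DESeq2 and -1.81 with a term for Xist, and neither was called. Mkrn3, its neighbour on the same paternally expressed side, had 22 and 21 counts in WT, 12 and 14 in Tau and 6 and 8 after UNC0642. Its log2 fold changes of -0.75 ± 0.60 and -1.24 ± 0.57 after UNC0642, against Tau and WT, were not called, though the second was called without the filter (unadjusted p = 0.0489) and in a fit of those 2 groups alone (unadjusted p = 0.0457).

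The more abundant genes of the domain were not called with all 6 libraries. Ndn, a MAGE family protein of neurons, stood at 174 and 166 CPM in WT, 200 and 202 CPM in Tau and 187 and 192 CPM after UNC0642, with a log2 fold change of 0.24 ± 0.07 (SE) between Tau and WT. Its unadjusted p was 0.00676, but its fold change of 1.18 was under the limit, and it passed the limit without the library labelled WT replicate 1 (0.27). Snrpn stood at 363 and 349 CPM in WT, 389 and 405 CPM in Tau and 398 and 377 CPM after UNC0642, and its change after UNC0642 was -0.04 ± 0.07. Ube3a, the ubiquitin ligase that neurons read from the maternal copy, stood at 259 and 327 CPM in WT, 271 and 310 CPM in Tau and 353 and 319 CPM after UNC0642. Both treated libraries were above both Tau libraries, at a log2 difference of 0.21 ± 0.11 (unadjusted p = 0.094) that was not called. It was called without Tau replicate 2 (0.31, unadjusted p = 0.0398) and with a term for Xist (0.55, unadjusted p = 0.00473). Against WT it was 0.20 ± 0.11, and 0.38 (unadjusted p = 0.00507) without WT replicate 2. Antisense annotation overlaps 27.3% of the exon bases of Ube3a, and the strand setting of the counting was not stated. Atp10a stood at 13 to 17.2 CPM and was called only against WT without UNC0642 replicate 1 (0.38, unadjusted p = 0.0486).

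The most abundant members outside these loci were not called with all 6 libraries. Peg3, a zinc finger protein known for its role in maternal behaviour, stood at 532 and 533 CPM in WT, 577 and 554 CPM in Tau and 566 and 546 CPM after UNC0642. Its log2 fold changes of 0.09, -0.03 and 0.06, each ± 0.07 (SE), were not called. Usp29 (48.9 to 52.4 CPM) and Zim1 (2.52 to 3.84 CPM) in the same locus were not called. Impact, a regulator of translation in neurons, stood at 454 and 441 CPM in WT, 502 and 509 CPM in Tau and 504 and 529 CPM after UNC0642. Every transgenic library was above both WT libraries, and the log2 differences of 0.18 ± 0.07 and 0.21 ± 0.07 had unadjusted p of 0.03 and 0.0144 at fold changes under the limit. Rasgrf1, an exchange factor for Ras in synaptic signalling, stood at 357 and 371 CPM in WT, 402 and 331 CPM in Tau and 481 and 344 CPM after UNC0642, with the replicates of both transgenic groups wide apart. Without UNC0642 replicate 2 it was called against Tau (0.39, unadjusted p = 0.0147) and against WT (0.40, unadjusted p = 0.013).

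The remaining members were not called in any comparison with all 6 libraries. Igf2r, the receptor that clears IGF2, stood at 88.7 to 98.7 CPM, and Airn, the noncoding RNA that overlaps it, had 10 to 31 counts per library. Mest (41.6 to 53.3 CPM) and Copg2 (120 to 138 CPM), which overlap on opposite strands, did not pass the test in any comparison. The same held for Cdkn1c, a cell cycle inhibitor at 3.43 to 5.2 CPM, Plagl1, a zinc finger protein at 7.98 to 12.1 CPM, Inpp5f, a phosphoinositide phosphatase at 84.3 to 110 CPM, and Gnas, the stimulatory G protein subunit, at 23.8 to 30.9 CPM. Antisense annotation overlaps 22% of the exon bases of Gnas and 30.7% of those of Cdkn1c. As the strand setting of the counting was not stated, reads of those bases may be missing from both levels. Between Tau and WT Gnas was called without the library labelled WT replicate 1 (-0.30, unadjusted p = 0.0482) and with library size only (-0.28), and Inpp5f without Tau replicate 1 (0.31, unadjusted p = 0.0146).

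Among proteins that set, read or maintain imprints, the share called was near or below that of all genes. Of 32 tested genes on a list of 36 such regulators, 1 was called higher in Tau than in WT (3.12%, against 9.81% of all genes), 3 were lower after UNC0642 than in untreated P301S Tau mice (9.38%, against 7.69%), and 1 was higher and 2 were lower in treated than in WT mice (9.38%, against 9.47%). Uhrf1, which brings the maintenance DNA methyltransferase to replicated DNA, stood at 0.355 and 0.312 CPM in WT, 1.22 and 1.37 CPM in Tau and 0.237 and 0.353 CPM after UNC0642. It was also among the genes that the study listed as reversed by UNC0642 on these libraries, which is not independent evidence. Its log2 fold changes were 1.93 ± 0.52 (SE; adjusted p = 0.242) and -2.08 ± 0.54 (adjusted p = 0.394), and both calls were kept when any 1 library was left out. Wiz, a zinc finger partner of the EHMT1 and EHMT2 complex, stood at 13.8 and 15.8 CPM in WT, 13.8 and 10.5 CPM in Tau and 8.94 and 8.34 CPM after UNC0642. Both treated libraries were below all 4 others. Its log2 fold change was -0.50 ± 0.17 against Tau and -0.78 ± 0.17 against WT (adjusted p = 0.464 and 0.119). The first was not called without Tau replicate 1 (-0.28, unadjusted p = 0.178) or UNC0642 replicate 2 (-0.45, unadjusted p = 0.0777), and the second was called without any 1 library. Tet1, an enzyme that oxidises methylated cytosine, stood at 29.8 and 27.8 CPM in WT, 26.9 and 32.5 CPM in Tau and 23.7 and 21.2 CPM after UNC0642. Its change was not called against Tau without Tau replicate 2 (-0.26) or UNC0642 replicate 2 (-0.32), nor against WT without the library labelled WT replicate 1 (-0.31) or UNC0642 replicate 2 (-0.28). Eed, a subunit of Polycomb repressive complex 2, was at 17.3 and 17.5 CPM in treated mice and 13.6 to 15.7 CPM in the others, and its call against WT was lost without either UNC0642 library or the library labelled WT replicate 1 (0.31 to 0.34).

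On a list of 45 further genes known to be imprinted in mouse, 34 were tested. Whether each is imprinted in this tissue was not measured. Of these 3 were called lower in Tau than in WT, Kcnk9, Kcnq1 and Th (8.82%, against 9.81% of all genes). After UNC0642, 3 were called higher (Kcnq1ot1, Kcnk9 and Sfmbt2) and 1 lower (Dhcr7), or 11.8% against 7.69% of all genes. Against WT mice, 4 (Th, Dhcr7, Tnfrsf23 and Osbpl5) were called lower and 0 higher in UNC0642-treated mice, or 11.8% against 9.47%. Of these 11 calls 10 were lost without 1 library or another, and the call of Kcnq1ot1 was kept. Kcnq1ot1, a paternally expressed long noncoding RNA that silences its cluster, stood at 206 and 265 CPM in WT, 148 and 218 CPM in Tau and 308 and 257 CPM after UNC0642. Its change after UNC0642 was 0.62 ± 0.17 (SE, log2; unadjusted p = 0.0047, adjusted p = 0.395), and 0.37 without Tau replicate 1. Kcnk9, a maternally expressed potassium channel gene of the Peg13 region, stood at 109 and 124 CPM in WT, 95.7 and 91.4 CPM in Tau and 115 and 113 CPM after UNC0642, with both Tau libraries below the other 4. Its log2 fold change between Tau and WT was -0.31 ± 0.09 (SE; unadjusted p = 0.00414, adjusted p = 0.247), and -0.22 without WT replicate 2, under the fold limit. Its change after UNC0642, 0.29, was not called without Tau replicate 2 (0.25) or UNC0642 replicate 1 (0.27).

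Th, the rate-limiting enzyme of dopamine synthesis, stood at 27.6 CPM in the library labelled WT replicate 1 and at 1.07 to 2.65 CPM in the other 5. Its log2 fold change between Tau and WT was -2.64, and 0.87 without that library. Kcnq1, a potassium channel gene, stood at 1.54 and 1.21 CPM in WT, 0.679 and 0.515 CPM in Tau and 0.651 and 1.1 CPM after UNC0642. Dhcr7, an enzyme of cholesterol synthesis, stood at 17.4 and 21.3 CPM in WT, 17.6 and 22.1 CPM in Tau and 13.4 and 14.6 CPM after UNC0642, where both libraries were below the other 4. Sfmbt2, a Polycomb group gene, stood at 4.1 and 3.91 CPM in WT, 4.08 and 3.03 CPM in Tau and 4.38 and 6.57 CPM after UNC0642. Osbpl5 stood at 31.3 and 35.1 CPM in WT, 29.6 and 28.6 CPM in Tau and 25.4 and 28.4 CPM after UNC0642. Tnfrsf23, a decoy receptor, stood at 0.71 and 0.586 CPM in WT, 0.322 and 0.573 CPM in Tau and 0.237 and 0.0882 CPM after UNC0642, with both treated libraries lowest.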

How the data were processed

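RNA of the PFC was sequenced by the study after depletion of ribosomal RNA, with strand-specific libraries. The submitters' processing notes name TopHat2, SAMtools, featureCounts, edgeR and mm10, without versions. The authors deposited raw counts per gene for each library, with no normalization. Strand setting and treatment of reads that overlap several genes are not given in the sources used here. Spreadsheet conversion to dates had altered 26 gene symbols in 2 libraries (WT replicate 2, Tau replicate 2), which were matched by their row.

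Counts were analysed with edgeR 4.0.16 in R 4.3.3. Low genes were removed with filterByExpr (minimum count 10, minimum total 15), libraries were scaled by TMM (factors 0.966 to 1.04), and group means were estimated from all 6 libraries in 1 quasi-likelihood fit (3 residual degrees of freedom, biological coefficient of variation 12.3%). Adjusted p-values are Benjamini-Hochberg values over the 20409 genes. Standard errors were obtained from the log2 fold change and its F statistic. CPM were computed on the scaled library sizes. The study calls the replicates biological duplicates, without saying whether each is 1 mouse, and p-values measure the spread between 2 libraries a group. Coordinates and exon lengths came from GENCODE M21, in which 53669 of 54429 symbols belonged to a single gene. DESeq2 1.42.0 was an alternative, and the fit was tested on simulated data.

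The imprinted genes and all lists were chosen with earlier results of these data known. Library values are given for each member called in a comparison and for the 8 tested members of highest mean level, and for listed genes that were called. Values outside this rule (Ndn, Mkrn3, Mirg and the untested members) were added after they had been seen, as were the refits of the called listed genes without each library and the count of overlapping promoter windows as 1.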

Additional observations from a re-analysis of the deposited data

How the results depend on the processing

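With an adjusted p under 0.05 from edgeR on the tested genes, the count of called imprinted genes was 0 in each comparison. By DESeq2's adjusted p it was 1, Meg3, between Tau and WT. With an unadjusted p alone from edgeR it was 7 between Tau and WT. Leaving out 1 library gave 2 to 6 called members after UNC0642 and 0 to 3 against WT, and DESeq2's Wald test gave 1 against WT. The median log2 fold change of the members between Tau and WT was 0.015 with library size only, 0.037 without the filter and 0.031 to 0.135 without 1 library. The median of all genes also moved, to -0.070 with library size only and -0.025 without the filter. After UNC0642 the median of the members was -0.074 to 0.002 without 1 library. Between treated and WT mice it was -0.035 with library size only, where that of all genes was -0.051, and -0.002 to 0.091 without 1 library. With a replicate block the counts were 4, 6 and 2, as without it, and it changed no call of a member. Same-numbered libraries, which come from different mice, did not deviate together (correlations of -0.0344 to -0.00335 over genes). Of 156 alternatives of the 12 called values, 123 kept direction and call, 32 lost the call and 1 changed sign, Nnat after UNC0642 with a term for Xist (0.01). That term leaves the comparison of treated with untreated P301S Tau mice to rest on the difference between the 2 WT libraries. The causes of these changes were not tested. Leaving out a library of a pair assumes that the lone library varies like the other groups. Genes of few counts, such as Dlk1, Magel2 and Uhrf1, are limited by depth.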
